A study of Mus musculus with 12 samples.

Results

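The genes described here are 35 genes of glycolysis and of the response to low oxygen, taken by symbol from the 46731 genes of an RNA-seq table of ATDC5 cells, a mouse chondrogenic line derived from teratocarcinoma cells. They comprise 4 carriers of glucose or lactate, 17 glycolytic enzymes, 3 regulatory kinases, 4 hypoxia-inducible factor (HIF) subunits and prolyl hydroxylases and 7 other hypoxia-response genes. All cells carried a lentiviral hairpin and were kept as puromycin-selected stable lines, either with the control hairpin (shRNA-NC) or with a hairpin against *Ddx5* (shRNA-*Ddx5*), an RNA helicase of the DEAD-box family. Both lines were collected at 6 h, without cytokines or with IL-1β at 5 ng/ml together with TNF-α at 25 ng/ml. This gave 4 groups of 3 replicates, that is 12 libraries, with 14119199 to 19276520 fragments on genes per library. Neither the labels nor the methods name a group kept at lowered oxygen. The unit is FPKM, fragments scaled to the length of the gene and the size of the library, which allows levels to be compared between genes. Of the 35 genes, 30 reached 1 FPKM in 3 or more libraries and were tested, among 12368 genes in all. Differences are given as log2 fold changes of FPKM + 1 with standard errors (SE), from 1 limma fit of the 12 libraries. A difference was called where the Benjamini-Hochberg adjusted p over all genes tested was under 0.05. On this scale the change of genes near or under 1 FPKM is understated.

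Glycolysis splits glucose into pyruvate in the cytosol. Glucose enters through carriers of the SLC2A family, is trapped by hexokinase, committed by phosphofructokinase and cleaved by aldolase, and the last steps yield ATP and pyruvate, which lactate dehydrogenase turns into lactate for export through SLC16A carriers. Prolyl hydroxylases mark the HIF-α subunits for degradation when oxygen is present. When oxygen is scarce, HIF binds short motifs near its target genes, among them genes of glycolysis, of blood vessel growth and of mitophagy. Cartilage has no blood vessels, and chondrocytes are known to rely largely on glycolysis.

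The motif of HIF was looked for in the promoters, because HIF is known to bind near many genes of glycolysis. The windows were the 250 bases before each start in the RefSeq promoter sequences (GRCm38.p6), and the letters searched were ACGTG and GCGTG on both strands. ACGTG overlaps its reverse complement in CACGTG, where both were counted. Of the 35 genes, 32 matched an entry, with 46 windows, and *Epas1*, *Ndrg1* and *Slc2a3* had none. A match was present in 37 of 46 windows (80.4%), against 38.6% of 32851 RefSeq windows and 44.0% of 21263 windows of protein-coding genes. The windows of these genes were also richer in G and C, with a median of 60.4% against 52.4% and 55.6%. A match describes letters, not binding, which was not measured. The 4 promoters below belong to a pair of enzyme genes (*Pgam1*, *Ldha*) that were higher after the knockdown and to a pair of hypoxia-response genes whose knockdown difference in the presence of cytokines had opposite signs (*Bnip3* higher, *Ero1a* lower, the latter a call lost with any of 4 single libraries left out). They were chosen after their values were seen, and capitals mark the matched letters. They lie at chr19:41911621-41911870 (plus strand), chr7:46845554-46845803 (plus), chr7:138909507-138909756 (minus) and chr14:45318573-45318822 (minus).
Pgam1: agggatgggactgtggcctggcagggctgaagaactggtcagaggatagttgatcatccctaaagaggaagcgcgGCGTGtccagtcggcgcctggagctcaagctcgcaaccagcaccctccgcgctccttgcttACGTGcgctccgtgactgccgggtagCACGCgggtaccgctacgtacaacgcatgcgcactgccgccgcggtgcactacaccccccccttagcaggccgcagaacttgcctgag
Ldha: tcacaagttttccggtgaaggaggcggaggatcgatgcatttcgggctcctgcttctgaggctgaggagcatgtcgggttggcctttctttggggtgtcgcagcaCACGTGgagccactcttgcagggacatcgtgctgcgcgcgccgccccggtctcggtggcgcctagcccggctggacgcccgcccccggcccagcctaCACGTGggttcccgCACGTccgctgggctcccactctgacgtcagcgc
Bnip3: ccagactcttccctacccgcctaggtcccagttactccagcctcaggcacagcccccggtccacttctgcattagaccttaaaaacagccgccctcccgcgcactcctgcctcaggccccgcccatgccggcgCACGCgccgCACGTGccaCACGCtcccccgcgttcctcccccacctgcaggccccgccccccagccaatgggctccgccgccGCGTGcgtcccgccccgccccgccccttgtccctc
Ero1a: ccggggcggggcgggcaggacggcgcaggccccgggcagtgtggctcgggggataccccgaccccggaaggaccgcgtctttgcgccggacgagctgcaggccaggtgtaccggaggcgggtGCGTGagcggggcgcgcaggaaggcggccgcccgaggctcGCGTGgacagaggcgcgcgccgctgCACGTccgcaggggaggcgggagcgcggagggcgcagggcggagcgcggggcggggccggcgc
*Ldha* and *Bnip3* held 5 matches each and *Pgam1* and *Ero1a* 3 each.

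*Ddx5* (gene 13207, chromosome 11 from 106671181 to 106680011, minus strand, GRCm39, as are all gene coordinates from here on) checked the labels. Its FPKM was 325, 337 and 294 in the shRNA-NC libraries and 90.7, 118 and 99.9 in shRNA-*Ddx5*. With cytokines it was 327, 302 and 301 in shRNA-NC and 101, 93.6 and 104 in shRNA-*Ddx5*. Every knockdown library lay below every control library, at 32.3% of the control mean in medium and 32.1% with cytokines.

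In medium, 16 of the 30 genes tested were higher and 4 lower after the knockdown, 53.3% and 13.3%. Among all genes tested the knockdown called 47.0%, with 25.3% higher and 21.7% lower. The median log2 fold change was 0.32 for these genes and 0.03 for all genes tested. With cytokines, 20 were higher and 4 lower, against 45.6% of all genes called (23.5% higher, 22.1% lower). The median was then 0.51, against 0.01 for all genes. *Ldhb* and *Eno2* reached the filter of 1 FPKM only in the groups where they were high, so that their direction was set by the filter. Without this pair, 15 of 28 were higher and 3 lower in medium and 19 and 4 with cytokines. Summed over the 17 enzymes, the FPKM of shRNA-NC cells was 1758 ± 111 and that of shRNA-*Ddx5* cells 2579 ± 357 (SD, n = 3 each). The sums with cytokines were 1968 ± 37.4 and 2960 ± 154 (SD, n = 3 each). The groups did not overlap for 21 of the 28 genes in medium and 25 with cytokines, against 53.5% and 61.6% of all genes tested. In bulk RNA, a change in the number of cells of a type and a change in the RNA per cell cannot be told apart. Nor can the loss of *Ddx5* be told apart from other differences between the lines or other effects of the hairpin. The FPKM as deposited summed to higher totals in the knockdown libraries. The sums were 364104 to 383398 in shRNA-NC and 388825 to 440463 in shRNA-*Ddx5*, and 403754 to 433165 against 439941 to 465969 with cytokines. Rescaling the FPKM to equal sums moved the median of all genes to -0.11 in medium and -0.09 with cytokines. No called difference of these genes changed sign under that rescaling. Without *Ldhb* and *Eno2*, their median in medium was then 0.19, with 11 of 28 higher and 4 lower. After quantile normalization it was 0.20, with 11 higher and 3 lower. With cytokines the medians were 0.41 on rescaling (19 higher, 4 lower) and 0.38 after quantile normalization (18 higher, 4 lower). The median of all genes after quantile normalization was -0.004 in medium and -0.015 with cytokines. How many of all genes were called in each direction was not counted for these alternatives, here or below.

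**Figure D1:**
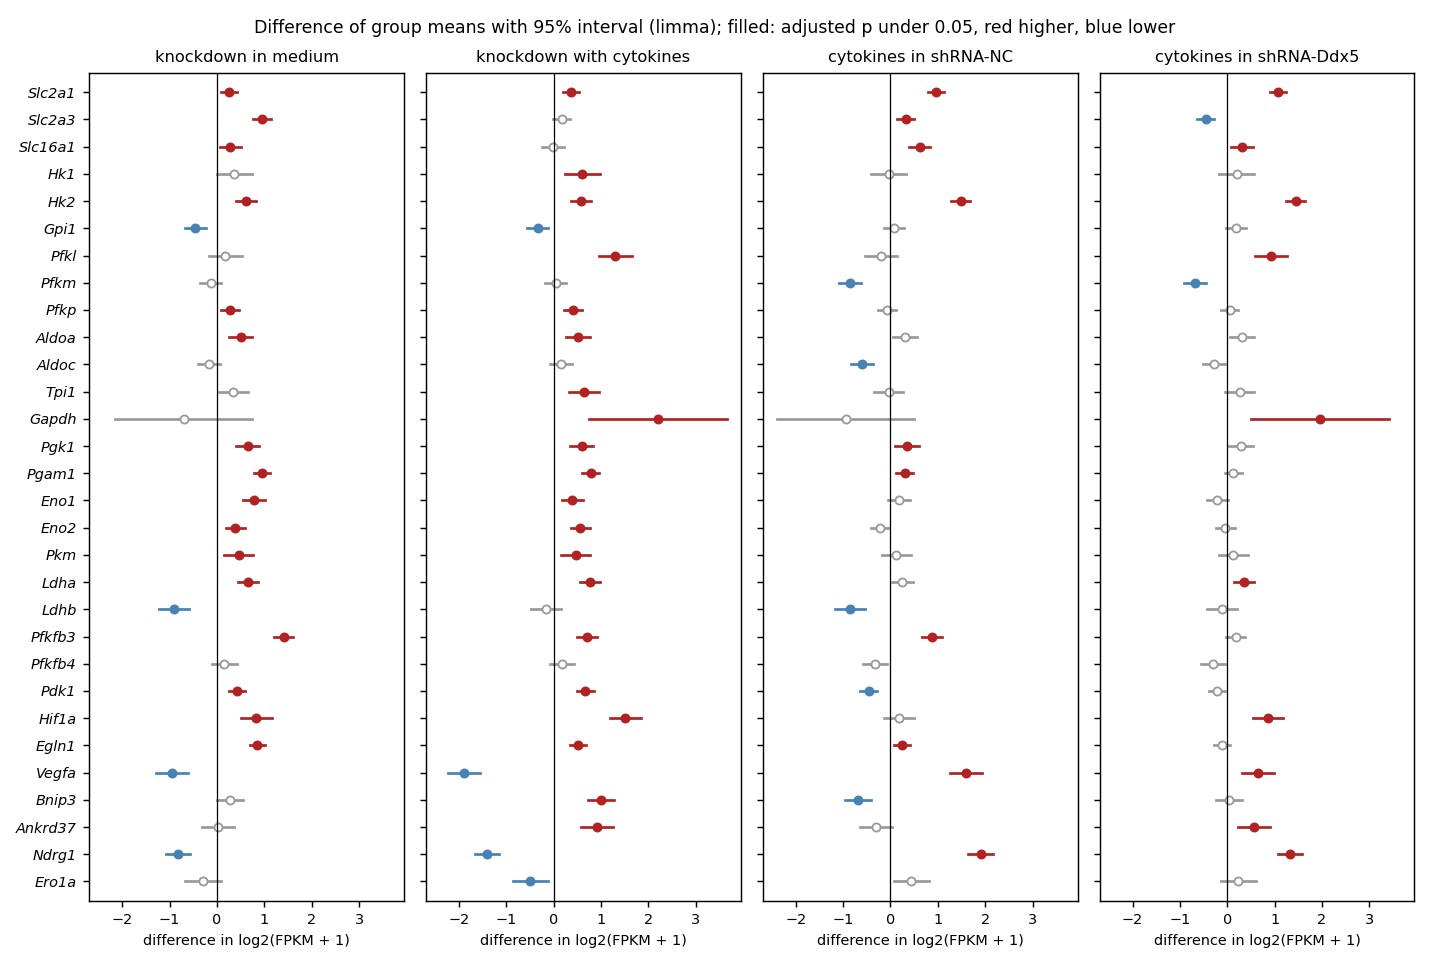
Log2 fold change of FPKM + 1 (x axis) with its 95% interval for the 30 genes tested (y axis, ordered by role), in 4 comparisons: shRNA-*Ddx5* against shRNA-NC in medium and with cytokines, and cytokines against medium in each line. Filled points passed an adjusted p of 0.05 (red higher, blue lower), although *Ldhb* and *Eno2* entered the test only through the groups where they were high, and most glycolytic enzymes lie to the right of 0 after the knockdown while *Gpi1*, *Vegfa* and *Ndrg1* lie to the left in both media.

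The glucose carrier *Slc2a1* (gene 20525, chromosome 4 from 118965942 to 118994527) had an FPKM of 25.2, 22.4 and 26.8 in shRNA-NC and 29.6, 27.8 and 31.8 in shRNA-*Ddx5*. In cytokine-treated cells it was 49.0, 48.0 and 49.6 in shRNA-NC and 64.1, 64.6 and 61.8 in shRNA-*Ddx5*. The 4 groups did not overlap. Cytokines raised *Slc2a1* by 0.95 (SE 0.08, limma adjusted p = 5.1e-06) in shRNA-NC and by 1.07 (SE 0.08, limma adjusted p = 1.4e-06) in shRNA-*Ddx5*. The knockdown raised it by 0.37 with cytokines (limma adjusted p = 0.0027), while the difference of 0.25 in medium (limma adjusted p = 0.020) lost its call without shRNA-NC replicate 2 (adjusted p = 0.092) or without shRNA-*Ddx5* replicate 3 (adjusted p = 0.089). On rescaling to equal sums the difference in medium was 0.11 (limma adjusted p = 0.26), and after quantile normalization 0.14 (limma adjusted p = 0.16). That with cytokines was 0.26 (limma adjusted p = 0.014) and 0.22 (limma adjusted p = 0.039), in the same order. *Slc2a3*, a carrier of high affinity best known from neurons, had an FPKM of 3.37, 3.38 and 2.77 in shRNA-NC and 7.64, 6.71 and 6.82 in shRNA-*Ddx5*. After cytokine treatment it was 4.29, 4.26 and 4.07 in shRNA-NC and 4.82, 4.81 and 4.96 in shRNA-*Ddx5*. Its knockdown difference was 0.95 (SE 0.08, limma adjusted p = 7.2e-06) in medium and 0.17 (SE 0.08, limma adjusted p = 0.11) with cytokines, a difference of differences of -0.78 (limma interaction, adjusted p = 0.0022). Cytokines lowered it in shRNA-*Ddx5* cells, by -0.46 (limma adjusted p = 0.0016), and the value in shRNA-NC was 0.32 (limma adjusted p = 0.011), a call lost on rescaling to equal sums (0.23, limma adjusted p = 0.081) and in a fit of only the libraries compared (adjusted p = 0.053).

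The lactate carrier *Slc16a1* had an FPKM of 29.6 to 31.5 in shRNA-NC, 35.6 to 39.7 in shRNA-*Ddx5*, 40.6 to 56.7 in shRNA-NC with cytokines and 46.9 to 47.0 in shRNA-*Ddx5* with cytokines. Its rise with cytokines in shRNA-NC (0.62, limma adjusted p = 0.00096) passed, and its knockdown difference in medium (0.28, limma adjusted p = 0.041) was lost with several single libraries left out, up to an adjusted p of 0.13 without shRNA-*Ddx5* replicate 3. It was 0.14 on rescaling to equal sums (limma adjusted p = 0.28) and 0.13 after quantile normalization (limma adjusted p = 0.34). The second lactate carrier, *Slc16a3*, was not tested, with an FPKM of 0.0869 to 0.291 over the 12 libraries.

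Of the 17 glycolytic enzymes, 9 were higher and 2 lower after the knockdown in medium, and 13 were higher and 1 lower with cytokines, beside 25.3% higher and 21.7% lower of all genes tested in medium and 23.5% and 22.1% with cytokines. The 9 and the 13 include *Eno2* and the 2 lower ones *Ldhb*, both selected by the filter, and without them 8 of 15 were higher and 1 lower in medium and 12 and 1 with cytokines. The 13 also include *Gapdh*, whose level is uncertain, as described further on. The medians of these 15 were 0.36 and 0.58. Replicate 1 of shRNA-*Ddx5* was the highest of its group for 16 of the 17 enzymes, with a summed FPKM of 2969 against 2269.5 and 2498 in replicates 2 and 3. Without it, 6 of the 15 were higher and 1 lower in medium, with a median of 0.22. The same counts, 6 and 1, and the same median of 0.22 were found in medium after quantile normalization, and 6 and 2 on rescaling to equal sums. With cytokines 10 and 1 and 12 and 1 were then called. The shares of all genes by direction were not counted under these settings. The enzymes with the highest levels were *Tpi1*, *Pgk1*, *Eno1*, *Pgam1*, *Pkm* and *Ldha*, all above 150 FPKM in every library. *Pgam1* (gene 18648, chromosome 19 from 41900310 to 41907104), a phosphoglycerate mutase of the lower part of the pathway, had an FPKM of 172, 169 and 186 in shRNA-NC and 365, 315 and 345 in shRNA-*Ddx5*. Cytokine-treated libraries were at 221, 212 and 215 in shRNA-NC and 370.2, 381 and 366 in shRNA-*Ddx5*. The knockdown raised it by 0.95 in medium (SE 0.08, limma adjusted p = 6.0e-06) and by 0.78 with cytokines (SE 0.08, limma adjusted p = 2.0e-05), with no overlap in either medium.

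*Ldha* (gene 16828, chromosome 7 from 46491698 to 46505051), the lactate dehydrogenase subunit that favors lactate, had an FPKM of 162, 151 and 152 in shRNA-NC and 276, 214 and 249 in shRNA-*Ddx5*. With cytokines the values were 186, 179 and 190.5 in shRNA-NC and 305, 337 and 301 in shRNA-*Ddx5*. The rise after the knockdown was 0.66 (SE 0.10, limma adjusted p = 0.00027) in medium and 0.76 (SE 0.10, limma adjusted p = 9.7e-05) with cytokines. *Eno1*, enolase, ranged from 238 to 253 in shRNA-NC and from 390.2 to 446 in shRNA-*Ddx5*, and from 251 to 321 and 351 to 388 with cytokines. It rose by 0.78 (SE 0.10, limma adjusted p = 0.00012) in medium and by 0.39 (SE 0.10, limma adjusted p = 0.0089) with cytokines, the latter lost under quantile normalization (0.17, limma adjusted p = 0.14). *Pgk1*, phosphoglycerate kinase, rose by 0.65 (limma adjusted p = 0.00073) in medium and 0.59 (limma adjusted p = 0.0014) with cytokines, from means of 292 and 372 to 462 and 561. Quantile normalization shrank the differences of abundant enzymes, in medium to 0.62 for *Pgam1*, 0.37 for *Ldha*, 0.44 for *Eno1* and 0.37 for *Pgk1*, and with cytokines to 0.37 for *Pgk1* and 0.40 for *Tpi1*, while that of *Gpi1* in medium grew to -0.73. *Aldoa*, the main aldolase here, rose by 0.50 (limma adjusted p = 0.0038) in medium and 0.51 (limma adjusted p = 0.0036) with cytokines. Its call in medium was lost under quantile normalization (0.22, limma adjusted p = 0.051).

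*Tpi1*, triose phosphate isomerase, had an FPKM of 392, 358 and 329.5 in shRNA-NC and 578, 393 and 419 in shRNA-*Ddx5*. Its difference in medium (0.35, SE 0.14, limma adjusted p = 0.061) did not pass, although the groups did not overlap, and that with cytokines (0.64, SE 0.14, limma adjusted p = 0.0032) did. With each library left out in turn, the difference in medium ranged from 0.18 to 0.45. Without shRNA-*Ddx5* replicate 2 it passed (0.45, limma adjusted p = 0.025), as it did with voom weights (adjusted p = 0.040). After quantile normalization it was 0.10 (limma adjusted p = 0.50). Pyruvate kinase, *Pkm*, was 0.46 higher in both media (limma adjusted p = 0.019 in each). In medium this call was lost without shRNA-NC replicate 3 (adjusted p = 0.063) or shRNA-*Ddx5* replicate 1 (adjusted p = 0.069). It was also lost on rescaling to equal sums (0.31, limma adjusted p = 0.056) and in a fit of only the libraries compared (adjusted p = 0.078). The call with cytokines was lost without replicate 1 of shRNA-NC with cytokines (adjusted p = 0.055) or replicate 2 of shRNA-*Ddx5* with cytokines (adjusted p = 0.064), and under quantile normalization in both media (adjusted p = 0.36 and 0.097).

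Not every step of the pathway moved this way. *Gpi1* (gene 14751, chromosome 7 from 33900752 to 33929761), glucose-6-phosphate isomerase, the step between hexokinase and phosphofructokinase, had an FPKM of 92.9, 85.1 and 79.0 in shRNA-NC and 69.5, 56.6 and 61.2 in shRNA-*Ddx5*. With cytokines it was 92.5, 82.8 and 94.8 in shRNA-NC and 70.9, 75.5 and 66.1 in shRNA-*Ddx5*. All 6 knockdown libraries lay below all 6 control libraries, where 24.8% of all genes tested in medium and 29.9% with cytokines were lower without overlap. The knockdown lowered it by -0.45 (SE 0.10, limma adjusted p = 0.0031) in medium and -0.34 (SE 0.10, limma adjusted p = 0.015) with cytokines. The call with cytokines was lost without replicate 3 of shRNA-NC with cytokines (adjusted p = 0.056) or replicate 3 of shRNA-*Ddx5* with cytokines (adjusted p = 0.062).

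**Figure D2:**
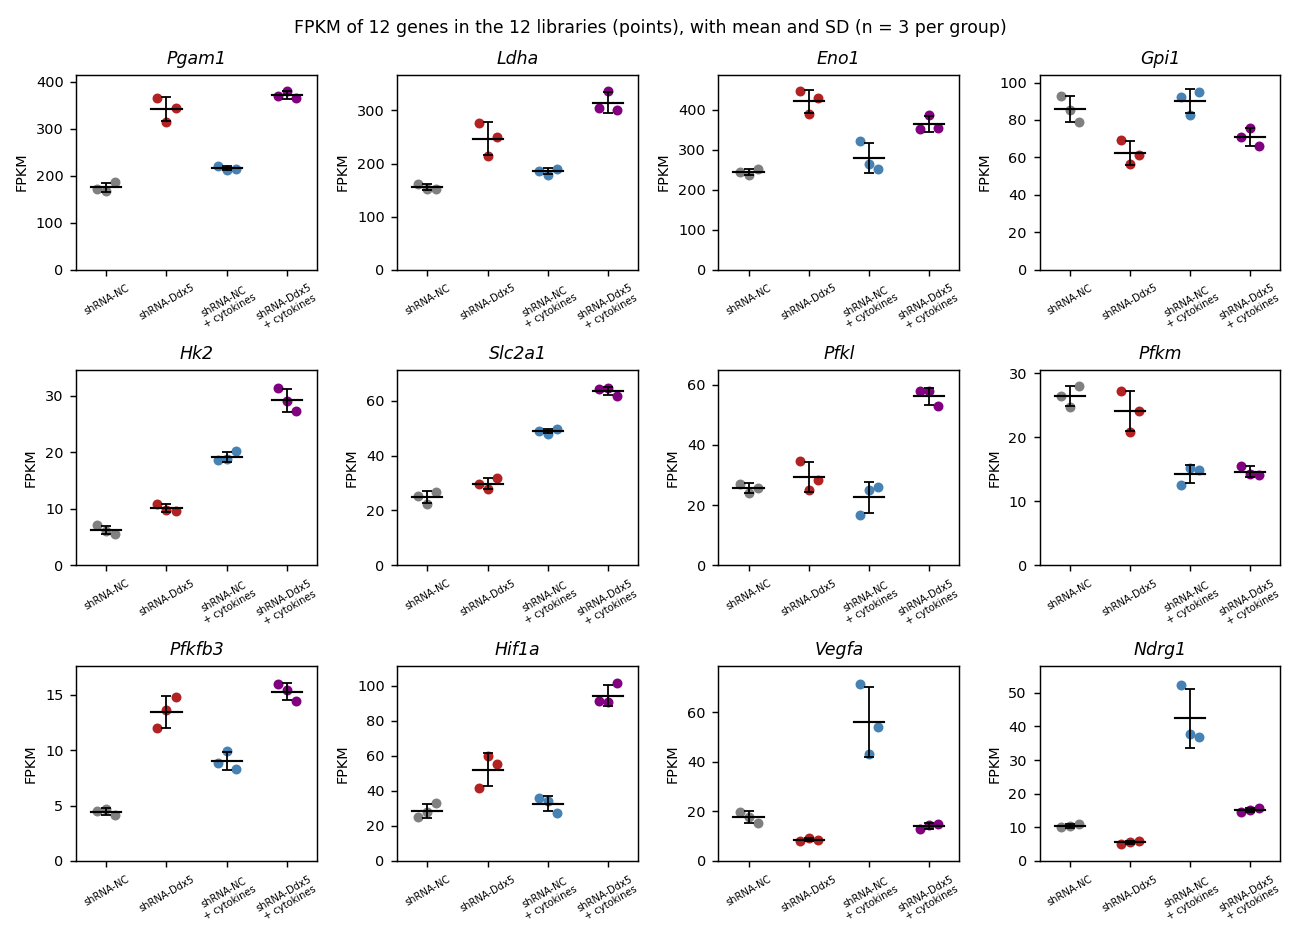
FPKM (y axis, linear from 0) of 12 genes in the 12 libraries, with points for the replicates, a horizontal line for the group mean and a bar for the SD (n = 3). *Pgam1*, *Ldha* and *Eno1* are higher and *Gpi1* lower in both knockdown groups, *Hk2* and *Slc2a1* follow the cytokines, *Pfkl* stands out with knockdown and cytokines together, and *Vegfa* and *Ndrg1* are highest in shRNA-NC with cytokines.

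The isoforms of hexokinase, the entry step, differed in what moved them. *Hk2* (gene 15277, chromosome 6 from 82702004 to 82751435) had an FPKM of 7.06, 6.15 and 5.53 in shRNA-NC and 10.9, 9.77 and 9.54 in shRNA-*Ddx5*. With cytokines the values were 18.7, 18.7 and 20.2 in shRNA-NC and 31.3, 29.0 and 27.2 in shRNA-*Ddx5*. The 4 groups did not overlap. Cytokines raised *Hk2* by 1.48 (SE 0.09, limma adjusted p = 4.7e-07) in shRNA-NC and 1.45 (SE 0.09, limma adjusted p = 4.1e-07) in shRNA-*Ddx5*, and the knockdown by 0.61 (limma adjusted p = 0.00029) and 0.58 (limma adjusted p = 0.00044). The interaction was -0.04 (95% interval -0.32 to 0.25). *Hk1* had an FPKM of 22.6, 20.5 and 16.04 in shRNA-NC and 14.8, 22.2 and 21.0 with cytokines, against 31.1, 22.3 and 23.7 and then 30.1, 30.2 and 27.8 in shRNA-*Ddx5*. Its cytokine differences were -0.04 (95% interval -0.41 to 0.34) and 0.20 (95% interval -0.17 to 0.57), and the knockdown raised it with cytokines (0.60, limma adjusted p = 0.013). *Hk2* thus made up 24.2% and 28.4% of hexokinase FPKM without cytokines and 50.2% and 49.8% with them, in shRNA-NC and shRNA-*Ddx5*. These shares did not overlap between medium and cytokines in either line (exact two-sided permutation p = 0.1 each, the smallest that 3 against 3 allows).

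Phosphofructokinase, the committing step, has a liver-type, a muscle-type and a platelet-type subunit. The liver type, *Pfkl* (gene 18641, chromosome 10 from 77822781 to 77845641), had an FPKM of 27.1, 24.0 and 25.8 in shRNA-NC and 34.8, 24.96 and 28.4 in shRNA-*Ddx5*. In cytokine-treated cells it was 16.6, 24.9 and 26.2 in shRNA-NC and 58.0, 57.8 and 53.0 in shRNA-*Ddx5*. The groups in medium overlapped, and the knockdown libraries with cytokines lay above all others. The knockdown difference was 0.18 (limma adjusted p = 0.37) in medium and 1.30 (SE 0.16, limma adjusted p = 6.5e-05) with cytokines, and the interaction was 1.12 (SE 0.22, limma adjusted p = 0.011). Replicate 1 of shRNA-NC with cytokines was the lowest library, and without it the knockdown difference with cytokines was 1.11 and the interaction 0.93. The muscle type, *Pfkm*, fell with cytokines from a mean FPKM of 26.4 to 14.3 in shRNA-NC (-0.85, limma adjusted p = 0.00011) and from 24.1 to 14.7 in shRNA-*Ddx5* (-0.67, limma adjusted p = 0.00056). Its knockdown differences were -0.14 (95% interval -0.36 to 0.09) in medium and 0.04 (95% interval -0.19 to 0.27) with cytokines. That in medium passed on rescaling to equal sums (-0.29, limma adjusted p = 0.040) but not after quantile normalization (-0.26, limma adjusted p = 0.052). *Pfkp*, at 2.34 to 4.01 FPKM, was the least abundant. It was higher after the knockdown by 0.40 (limma adjusted p = 0.0027) with cytokines. In medium its difference of 0.28 (limma adjusted p = 0.021) lost its call without shRNA-NC replicate 2 (adjusted p = 0.069) or shRNA-*Ddx5* replicate 1 (adjusted p = 0.071). The call was also lost on rescaling to equal sums (0.18, limma adjusted p = 0.20) and in a fit of only the libraries compared (adjusted p = 0.063). The share of *Pfkl* in the 3 subunits was 46.7%, 51.4%, 56.8% and 75.3% in shRNA-NC, shRNA-*Ddx5*, shRNA-NC with cytokines and shRNA-*Ddx5* with cytokines, while that of *Pfkm* was 48.2%, 42.3%, 36.5% and 19.6%.

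**Figure D3:**
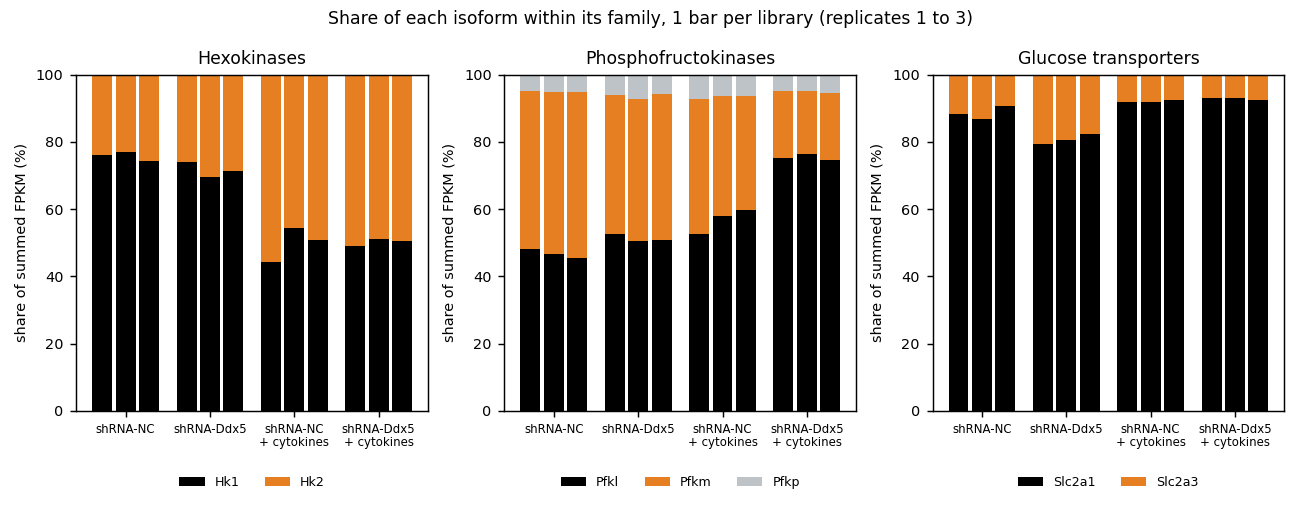
Share (y axis, percent of summed FPKM) of each isoform within the hexokinases, the phosphofructokinases and the glucose carriers, with 1 stacked bar for each of the 12 libraries, grouped by condition. *Hk2* covers about as much as *Hk1* in both cytokine groups, at 50.2% and 49.8%, and *Pfkl* reaches 75.3% in shRNA-*Ddx5* with cytokines.

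Within the pairs *Ldha* and *Ldhb*, *Aldoa* and *Aldoc*, and *Eno1* and *Eno2*, the gene named first held nearly all of the FPKM. The enolase pair leaves out *Eno3* and the copy *Eno1b*, whose levels are given further on. The share of *Ldha* in *Ldha* and *Ldhb* was 99.2% on average in shRNA-NC and 99.9%, 99.9% and 100% in shRNA-*Ddx5*, shRNA-NC with cytokines and shRNA-*Ddx5* with cytokines. *Ldhb*, the subunit that favors pyruvate, had 37, 32 and 23 fragments in shRNA-NC and 10, 3 and 1 in shRNA-*Ddx5*. With cytokines it had 2, 9 and 7 fragments in shRNA-NC and 5, 0 and 2 in shRNA-*Ddx5*, where 3 fragments are the limit that a count of 0 allows, for counting error only. Only the 3 shRNA-NC libraries reached the filter of 1 FPKM, so the fall of *Ldhb* against them was fixed by the filter and is given as a description. *Aldoc* fell with cytokines in shRNA-NC, from a mean FPKM of 1.91 to 0.908 (-0.61, limma adjusted p = 0.0012). *Eno2*, the neuronal enolase, was 0.631 and 0.402 FPKM in shRNA-NC without and with cytokines and 1.14 and 1.07 in shRNA-*Ddx5*. It reached the filter only in the 6 knockdown libraries, so its difference is likewise a description.

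*Gapdh* stood apart from its pathway. As the step between *Tpi1* and *Pgk1* it is usually among the most abundant mRNAs of a cell, and the study used it as the reference for its qPCR. Its FPKM here was 20.4, 27.8 and 6.52 in shRNA-NC and 12.6, 7.69 and 8.12 in shRNA-*Ddx5*. After cytokine treatment it was 6.66, 7.16 and 9.41 in shRNA-NC and 10.8, 92.0 and 56.3 in shRNA-*Ddx5*. Replicates 2 and 3 of the last group were far above replicate 1 and above every other library, and *Tpi1* and *Pgk1* lay at 270.2 to 581 FPKM in the same libraries. Another 171 rows of the table are described as *Gapdh*, 170 of them pseudogenes, and 89 had fragments. Their summed FPKM averaged 19.4, 30.2, 31.4 and 37.9 in the 4 groups in the order above, which was 106%, 318%, 405% and 71.6% of the mean of *Gapdh* itself. How reads that fit several of these rows were counted is not given in the sources used here, so the level of *Gapdh* and its differences are uncertain. Its calls after the knockdown with cytokines (2.20, SE 0.66, limma adjusted p = 0.018) and with cytokines in shRNA-*Ddx5* (1.95, limma adjusted p = 0.048) were lost without replicate 2 of shRNA-*Ddx5* with cytokines (1.59 and 1.34, limma adjusted p = 0.079 and 0.18) or replicate 3 of that group (1.93 and 1.69, limma adjusted p = 0.064 and 0.14). The first was also lost without replicate 1 of shRNA-NC with cytokines (adjusted p = 0.053), and the second without most other single libraries. Without *Gapdh*, the summed FPKM of the enzymes was 1740 ± 106, 2569 ± 354, 1960 ± 36.3 and 2907 ± 122 (SD, n = 3 each). *Eno1* also has a copy, *Eno1b*, at 89.7, 149, 106 and 153 FPKM in the same order, and the rows described as its copies summed to 35.5% to 42.3% of *Eno1*. *Eno1b* was called higher after the knockdown in both media, as *Eno1* was (0.72 and 0.52, limma adjusted p = 0.00011 and 0.00095).

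**Figure D4:**
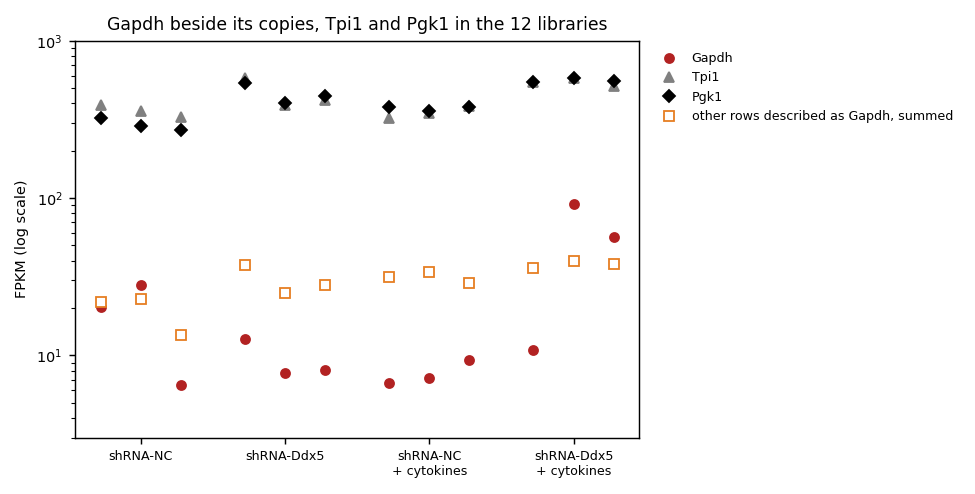
FPKM (y axis, log scale) of *Gapdh*, *Tpi1* and *Pgk1* and the summed FPKM of the 171 other rows described as *Gapdh* in each of the 12 libraries (x axis, by group). *Gapdh* spans 6.52 to 92.0 FPKM and varies within groups, while *Tpi1* and *Pgk1* stay between 270.2 and 581.

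Among the regulators, *Pfkfb3* (gene 170768, chromosome 2 from 11476241 to 11558882) makes fructose 2,6-bisphosphate, the strongest activator of phosphofructokinase. Its FPKM was 4.48, 4.73 and 4.10 in shRNA-NC and 11.97, 13.7 and 14.8 in shRNA-*Ddx5*. Cytokine-treated libraries were at 8.86, 9.92 and 8.28 in shRNA-NC and 15.9, 15.5 and 14.4 in shRNA-*Ddx5*. The knockdown raised it by 1.41 (SE 0.09, limma adjusted p = 1.4e-06) in medium and 0.70 (SE 0.09, limma adjusted p = 0.00013) with cytokines, so that the interaction was -0.71 (SE 0.13, limma adjusted p = 0.0082). Cytokines raised it by 0.88 (limma adjusted p = 3.9e-05) in shRNA-NC, and in shRNA-*Ddx5*, where the groups overlapped, the difference was 0.17 (95% interval -0.03 to 0.38). *Pdk1*, a kinase that turns off pyruvate dehydrogenase, was 6.47 ± 0.419 FPKM in shRNA-NC and 9.03 ± 0.301 in shRNA-*Ddx5*, and 4.43 ± 0.441 and 7.60 ± 0.0660 with cytokines (SD, n = 3 each). It rose by 0.43 (limma adjusted p = 0.0012) and 0.67 (limma adjusted p = 5.5e-05) after the knockdown and fell by -0.46 (limma adjusted p = 0.0011) with cytokines in shRNA-NC. *Pfkfb4*, at 1.97 to 4.02 FPKM, passed in none of the comparisons as first fitted. Its cytokine difference in shRNA-NC (-0.32, limma adjusted p = 0.052) passed on rescaling to equal sums (-0.53, limma adjusted p = 0.013) and with voom weights (adjusted p = 0.042). In shRNA-*Ddx5* it (-0.30, limma adjusted p = 0.079) passed on rescaling (-0.45, limma adjusted p = 0.031). Neither passed after quantile normalization (limma adjusted p = 0.093 and 0.086).

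*Hif1a* (gene 15251, chromosome 12 from 73948098 to 73994328) encodes the main oxygen-regulated HIF subunit, whose protein was not measured here. Its FPKM was 25.2, 27.6 and 32.9 in shRNA-NC and 41.4, 59.9 and 55.0 in shRNA-*Ddx5*. Under cytokines it measured 35.7, 34.3 and 27.6 in shRNA-NC and 91.1, 90.7 and 101 in shRNA-*Ddx5*. The knockdown raised it by 0.84 (SE 0.15, limma adjusted p = 0.00082) in medium and 1.52 (SE 0.15, limma adjusted p = 1.4e-05) with cytokines. The interaction of 0.68 (limma adjusted p = 0.070) did not pass. Cytokines raised it in shRNA-*Ddx5* (0.86, limma adjusted p = 0.0011), and in shRNA-NC, where the groups overlapped, the difference was 0.18 (95% interval -0.14 to 0.50). The HIF prolyl hydroxylase *Egln1* was also raised by the knockdown. Its mean FPKM was 18.5 ± 0.971 against 34.3 ± 2.77 without cytokines, and 22.0 ± 0.910 against 31.7 ± 0.917 after their addition (SD, n = 3 each). The differences were 0.86 (limma adjusted p = 8.9e-06) and 0.51 (limma adjusted p = 0.00028). *Epas1*, the other HIF-α subunit, and *Egln3*, another hydroxylase, did not reach the filter and were not tested with it. With no filter, the knockdown difference of *Epas1* was -0.35 (limma adjusted p = 0.035) in medium and 0.53 (limma adjusted p = 0.0044) with cytokines. That of *Egln3* with cytokines was 0.41 (limma adjusted p = 0.020). Both genes were higher with cytokines in shRNA-*Ddx5* (0.53 and 0.38, limma adjusted p = 0.0068 and 0.046). *Epas1* had an FPKM of 0.566, 0.227, 0.239 and 0.776 and *Egln3* of 0.700, 0.596, 0.558 and 1.07 as means of the groups in the order above.

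Of the other genes of the hypoxia response 5 were tested, too few to read a share from. In medium none was called higher and 2 were lower after the knockdown (all genes 25.3% and 21.7%), and with cytokines 2 were higher and 3 lower (all genes 23.5% and 22.1%). *Vegfa* (gene 22339, chromosome 17 from 46327919 to 46343303), the growth factor of blood vessels, had an FPKM of 19.9, 17.8 and 15.2 in shRNA-NC and 8.17, 9.01 and 8.57 in shRNA-*Ddx5*. With cytokines it was 71.1, 43.2 and 53.9 in shRNA-NC and 12.8, 14.3 and 15.02 in shRNA-*Ddx5*, below every shRNA-NC library without cytokines. The knockdown lowered it by -0.95 (SE 0.15, limma adjusted p = 0.00049) in medium and -1.90 (SE 0.15, limma adjusted p = 4.6e-06) with cytokines. *Ndrg1*, a gene of the stress response known for its induction by low oxygen, had an FPKM of 9.95, 10.3 and 11.1 in shRNA-NC and 5.13, 5.46 and 5.80 in shRNA-*Ddx5*. In cytokine-treated cells it was 52.4, 37.8 and 36.9 in shRNA-NC and 14.5, 15.3 and 15.6 in shRNA-*Ddx5*. It was lower after the knockdown by -0.83 (limma adjusted p = 0.00021) and -1.41 (limma adjusted p = 5.5e-06), with an interaction of -0.58 (limma adjusted p = 0.055). Cytokines raised it by 1.90 (limma adjusted p = 4.5e-07) in shRNA-NC and 1.32 (limma adjusted p = 7.2e-06) in shRNA-*Ddx5*.

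*Bnip3*, a mitophagy receptor, had an FPKM of 20.5, 19.4 and 27.4 in shRNA-NC and 25.7, 25.6 and 29.4 in shRNA-*Ddx5*, which overlapped. The difference of 0.27 (limma adjusted p = 0.10) passed without shRNA-NC replicate 3 (0.41, limma adjusted p = 0.0072). On rescaling to equal sums it was 0.12 (limma adjusted p = 0.44). After cytokine treatment the FPKM of *Bnip3* was 15.1, 12.04 and 12.9 in shRNA-NC and 26.5, 28.5 and 27.4 in shRNA-*Ddx5*, higher in all of the knockdown libraries (0.99, SE 0.12, limma adjusted p = 8.3e-05). Its cytokine difference in shRNA-NC was -0.70 (limma adjusted p = 0.0015), and in shRNA-*Ddx5* 0.03 (95% interval -0.24 to 0.31). *Ankrd37*, a small ankyrin-repeat gene, was 1.03, 1.04, 0.623 and 2.03 FPKM as group means in the order above, higher after the knockdown with cytokines by 0.91 (limma adjusted p = 0.00064). *Ero1a*, an oxidase of disulfide formation in the endoplasmic reticulum, was 15.3, 16.2 and 19.4 FPKM in shRNA-NC, 12, 13.9 and 14.9 in shRNA-*Ddx5*, 32.0, 18.6 and 20.9 in shRNA-NC with cytokines and 16.3, 15.2 and 17.0 in shRNA-*Ddx5* with cytokines. Its difference with cytokines (-0.50, limma adjusted p = 0.032) was lost without the high replicate 1 of the control group, when it was -0.27 (limma adjusted p = 0.089). The call was also lost without replicate 1, 2 or 3 of shRNA-*Ddx5* with cytokines (adjusted p = 0.071, 0.095 and 0.055). *Car9*, a carbonic anhydrase, had 2 to 29 fragments per library and *Adm*, adrenomedullin, none in any library, and neither was tested with the filter. With no filter, *Car9* was higher after the knockdown in medium (0.30, limma adjusted p = 0.011). It was lower with cytokines in shRNA-NC and shRNA-*Ddx5* (-0.29 and -0.52, limma adjusted p = 0.019 and 0.00073).

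The cytokines alone called 10 of the 30 genes higher and 5 lower in shRNA-NC, against 33.8% of all genes tested (18.6% higher, 15.2% lower). In shRNA-*Ddx5*, 10 were higher and 2 lower, against 27.0% (13.5% in each direction). Without *Ldhb* and *Eno2*, 10 of 28 were higher and 4 lower in shRNA-NC, and 10 and 2 in shRNA-*Ddx5*. On rescaling to equal sums, 6 of the 28 were higher and 5 lower in shRNA-NC, and 7 higher and 7 lower in shRNA-*Ddx5*. The median of all genes was then -0.13 in shRNA-NC and -0.11 in shRNA-*Ddx5*. The cytokine comparisons share libraries with those of the knockdown. *Slc2a1*, *Hk2*, *Vegfa* and *Ndrg1* were among the genes called higher in both lines and *Pfkm* was called lower in both, while the 15 enzymes not selected by the filter had medians of 0.07 and 0.20, which were -0.13 and 0.09 after quantile normalization. Small rises in shRNA-NC of *Pgk1* (0.35, limma adjusted p = 0.032), *Pgam1* (0.30, limma adjusted p = 0.014) and *Egln1* (0.24, limma adjusted p = 0.033) and of *Ldha* in shRNA-*Ddx5* (0.36, limma adjusted p = 0.019) each lost their call with at least 1 library left out, for example without shRNA-NC replicate 2 for *Pgam1* (adjusted p = 0.058) and without replicate 2 of shRNA-*Ddx5* for *Ldha* (adjusted p = 0.067). The rises in shRNA-NC were also lost under both scalings, at 0.17 for *Pgk1*, 0.02 for *Pgam1* and 0.15 for *Egln1* after quantile normalization and 0.19, 0.14 and 0.09 on rescaling to equal sums, and that of *Egln1* with the replicate block (adjusted p = 0.065). The rise of *Ldha* in shRNA-*Ddx5* was lost after quantile normalization (0.16, limma adjusted p = 0.080) and passed on rescaling (0.24, limma adjusted p = 0.021). Among the 10 higher in that line, *Gapdh*, *Slc16a1* (0.32, limma adjusted p = 0.043) and *Ankrd37* (limma adjusted p = 0.019) also lost their calls on rescaling. The limma adjusted p was then 0.055, 0.15 and 0.065, and these calls were lost with several single libraries left out as well. The interaction called 7 of the 30 genes, 4 higher and 3 lower, against 8.21% of all genes (3.46% higher, 4.75% lower). Without *Ldhb* and *Eno2* it called 3 of 28 higher and 3 lower.

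Genes of pathways linked to glycolysis were counted as fixed lists. Of 17 genes of the tricarboxylic acid cycle, 14 were higher and none lower after the knockdown in medium, and 13 and none with cytokines, with medians of 0.49 and 0.37. *Idh2*, mitochondrial isocitrate dehydrogenase, had an FPKM of 19.3, 18.5 and 20.6 in shRNA-NC and 48.9, 39.9 and 44.3 in shRNA-*Ddx5* (1.15, SE 0.10, limma adjusted p = 1.0e-05). Cytokine-treated libraries were at 15.6, 19.6 and 18.6 against 34.6, 35.02 and 30.2 (0.86, limma adjusted p = 6.7e-05). Malate dehydrogenase, *Mdh2*, was 215 ± 6.06 FPKM in shRNA-NC against 385 ± 42.3 after the knockdown, and 250.2 ± 8.89 against 380.1 ± 18.1 in the cytokine groups (SD, n = 3 each), called higher in both (0.83 and 0.60, limma adjusted p = 3.4e-05 and 0.00030). Of 88 nuclear genes for subunits or assembly factors of the oxidative phosphorylation complexes, 46 were higher and 1 lower in medium. With cytokines 47 were higher and 1 lower, and the medians were 0.40 and 0.43. This list was taken by symbol and shares *Sdha* to *Sdhd* with that of the cycle. In the pentose phosphate pathway, 6 of 10 were higher and none lower in medium, led by transaldolase, *Taldo1* (0.61, limma adjusted p = 0.00026), and 4 were higher and 1 lower with cytokines. Glycogen genes were split, with 4 higher and 3 lower of 12 in each medium. *Gyg*, glycogenin, the primer of glycogen, fell most, at 35.5, 18.9, 32.6 and 17.9 FPKM as group means in the order above. All of these counts stand beside 25.3% higher and 21.7% lower for all genes in medium and 23.5% and 22.1% with cytokines. Replicate 1 of shRNA-*Ddx5* was again the highest of its group. Its summed FPKM was 1655 against 1414.5 and 1549 for the cycle, and 13187 against 10182 and 11329 for oxidative phosphorylation. The counts of these lists were not repeated without it or under the other scalings.

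**Figure D5:**
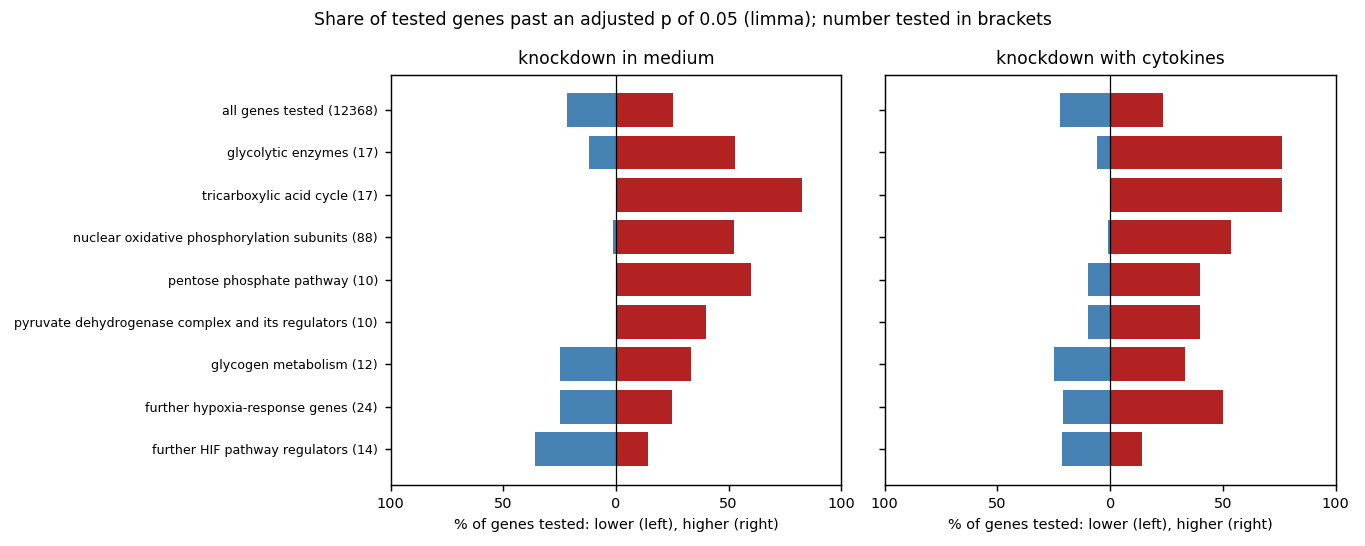
Share (x axis, percent of genes tested) called lower (blue, to the left) or higher (red, to the right) after the knockdown in medium and with cytokines, for all 12368 genes tested and 8 gene lists (y axis, number tested in brackets). The tricarboxylic acid cycle, oxidative phosphorylation and glycolytic enzyme lists lie mostly to the right in both panels, while all genes are split about evenly. The glycolytic enzymes include *Ldhb* and *Eno2*, whose direction was set by the filter, and *Gapdh*, whose level is uncertain.

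The gate between glycolysis and the cycle, pyruvate dehydrogenase and its regulators, had 4 of 10 genes higher and none lower in medium (all genes 25.3% and 21.7%) and 4 higher and 1 lower with cytokines (all genes 23.5% and 22.1%). *Pdk4*, a kinase that turns the complex off, changed direction between the media. Its FPKM was 9.61, 9.53 and 11.8 in shRNA-NC and 26.1, 30.5 and 30.2 in shRNA-*Ddx5*. Under cytokines it measured 19.8, 16.3 and 17.8 in shRNA-NC and 9.14, 9.36 and 8.59 in shRNA-*Ddx5*. The knockdown difference was 1.41 (SE 0.10, limma adjusted p = 2.3e-06) in medium and -0.91 (SE 0.10, limma adjusted p = 3.6e-05) with cytokines, and the interaction was -2.32 (SE 0.14, limma adjusted p = 2.5e-05). *Pcx*, pyruvate carboxylase, was 7.36, 22.1, 10.1 and 51.7 FPKM as group means in the order above, higher after the knockdown by 1.46 (limma adjusted p = 0.00022) and 2.31 (limma adjusted p = 9.6e-06).

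Among 14 further regulators of HIF, 2 were higher and 5 lower in medium and 2 higher and 3 lower with cytokines, where 25.3% and 21.7% of all genes were higher and lower in medium and 23.5% and 22.1% with cytokines. The coactivator *Crebbp* was lower in both (-1.06 and -0.61, limma adjusted p = 2.3e-05 and 0.00089) and *Eloc*, elongin C of the ubiquitin ligase that degrades HIF-α, was higher in both (0.85 and 0.52, limma adjusted p = 1.6e-05 and 0.00039). Among 24 further hypoxia-response genes, 6 were higher and 6 lower in medium, which is close to the shares of all genes, and 12 higher and 5 lower with cytokines. Their medians were 0.09 and 0.42. *Igfbp3*, a binding protein of insulin-like growth factors, had an FPKM of 95.9, 107 and 117 in shRNA-NC and 327, 329 and 353 in shRNA-*Ddx5*. The cytokine groups were at 34.1, 41.3 and 32.8 against 268, 307 and 284. Its difference was 1.65 (SE 0.11, limma adjusted p = 1.0e-06) in medium and 2.96 (SE 0.11, limma adjusted p = 3.5e-08) with cytokines. *Lox*, which crosslinks collagen, and *Kdm3a*, a histone demethylase, fell in medium (-1.13 and -0.94, limma adjusted p = 2.1e-05 and 0.00029).

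The cell type was checked with marker lists. Of 14 chondrocyte markers, 4 were tested, *Sox9*, *Sox5*, *Col2a1* and *Col11a1*. *Sox9*, the master regulator of chondrocytes, was the most abundant, *Cnmd* had no fragment and *Acan*, aggrecan, had at most 4 fragments in a library. Their summed FPKM was 43.3, 33.1, 16.5 and 11.1 in the 4 groups. After the knockdown *Col2a1* fell in both media (-2.80 and -1.98, limma adjusted p = 5.9e-06 and 5.5e-05) and *Col11a1* rose in both (1.601 and 1.65, limma adjusted p = 2.3e-06 and 1.8e-06), while *Sox9* fell with cytokines (-0.61, limma adjusted p = 0.00017) and *Sox5* passed in neither. Fibroblast and myofibroblast markers moved with the knockdown, with 5 of 8 tested called higher in medium and 8 of 8 with cytokines (all genes 25.3% and 23.5%). Their summed FPKM over 10 genes was 573 ± 6.48 for shRNA-NC against 2182 ± 58.9 for the knockdown, and 375 ± 92.5 against 1767 ± 129 in the cytokine groups (SD, n = 3 each), mostly from *Col1a2*. *Tagln* and *Thy1* of this list had at most 1 and 2 fragments in a library. The part of this change in the results on glycolysis was not tested. Of 8 leukocyte markers *Cd68* was the most abundant, at 1.42 FPKM on average, and *Ptprc* and *Cd3e* had no fragment. *Cdh5* and *Erg* of 6 endothelial markers and *Epcam* of 6 epithelial markers had none either. Of 6 pluripotent markers *Sox2* was expressed, at 9.73 FPKM on average, and *Pou5f1*, *Zfp42*, *Lin28a* and *Dppa3* had no fragment. *Spp1* was the most abundant of 6 hypertrophic markers. All 3 tested were called higher after the knockdown in medium and 2 with cytokines (all genes 25.3% and 23.5%), too few to read a share from. Cytokines lowered *Runx2* and *Pth1r* in shRNA-*Ddx5*, and in shRNA-NC they lowered *Runx2* and raised *Spp1*.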

How the data were processed

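Poly-A RNA of ATDC5 cells was sequenced by the authors with reads of 150 nt from both ends, and fragments were counted on genes with featureCounts. The submitters' processing notes list HISAT2 2.0.5, featureCounts 1.5.0-p3, DESeq2 1.20.0 and GATK 3.7. The deposited unit is FPKM, scaled by the authors with a denominator of 0.957 to 1.08 times the fragments on genes of each library. FPKM times gene length gave whole fragments for 100% of values (tolerance 1e-06), which gave the depths and were used in 1 alternative. The gene table follows GRCm39, since the intervals of all 35 genes overlapped the gene of the same symbol in that build, although the notes name mm10.

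Values were fitted as log2(FPKM + 1) with limma 3.58.1 (lmFit, contrasts.fit, eBayes with trend) in R 4.3.3, with 4 group means over 12 libraries and a filter of 1 FPKM in at least 3 libraries. The 5 contrasts were each adjusted by Benjamini-Hochberg over 12368 genes, with a threshold of 0.05. The authors tested counts with DESeq2, which was not run here. Groups came from the labels, and the study calls the 3 replicates biologically independent, so p-values measure the spread between these samples. The study lists 1 hairpin sequence against *Ddx5*. The p-values therefore do not cover other effects of that hairpin or other differences between the selected lines. Shares of isoforms were compared with the exact two-sided permutation test. Plots were made in Python 3.11.15 (matplotlib 3.10.9).

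The genes and lists were chosen with earlier results of these data known. From each further list, up to 3 genes per contrast with the largest change among those called without overlap could be named. The alternatives comprised the pseudocount 0.1, all genes without a filter, a filter on a mean FPKM of 1, rescaling to equal sums, quantile normalization, a replicate block, eBayes without trend, voom weights, only the libraries compared, a fold limit (log2 fold changes beyond 1 in size) and each library left out in turn.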

Additional observations from a re-analysis of the deposited data

Results flagged for a closer look

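The limma interaction term with Benjamini-Hochberg adjustment called 7 of the 30 genes tested, or 6 of 28 without *Ldhb* and *Eno2*, which the filter selected, against 8.21% of all genes. The value given is the knockdown difference with cytokines minus that in medium, on the log2 scale. It was 1.12 for *Pfkl* (adjusted p = 0.011), -0.78 for *Slc2a3* (adjusted p = 0.0022) and -0.71 for *Pfkfb3* (adjusted p = 0.0082), and these 3 kept their call under every alternative run apart from a limit on the size of the fold change. It was -0.95 for *Vegfa* (adjusted p = 0.023), 0.73 for *Bnip3* (adjusted p = 0.029), 0.88 for *Ankrd37* (adjusted p = 0.032) and 0.74 for *Ldhb* (adjusted p = 0.048). The call of *Vegfa* was lost with no filter on low values (adjusted p = 0.051) and without shRNA-NC replicate 2 (adjusted p = 0.052), shRNA-*Ddx5* replicate 3 (adjusted p = 0.056), or replicate 1 or 2 of shRNA-*Ddx5* with cytokines (adjusted p = 0.066 and 0.052). Those of *Bnip3* and *Ankrd37* were lost with no filter (adjusted p = 0.056 and 0.069) and with several single libraries left out, up to an adjusted p of 0.071 for *Bnip3* without replicate 2 of shRNA-*Ddx5* with cytokines and 0.084 for *Ankrd37* without shRNA-*Ddx5* replicate 3. That of *Ankrd37* was lost when any 1 of 9 libraries was left out, with the pseudocount of 0.1 (adjusted p = 0.056) and on rescaling to equal sums (adjusted p = 0.060). *Ldhb* entered the test only because its 3 shRNA-NC libraries reached 1 FPKM, so its value is no evidence of a difference. It rests on 0 to 37 fragments per library, and its call was lost under most alternatives (adjusted p = 0.45 with voom weights on fragments).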

How the results depend on the processing

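Of the calls for these genes, 15 of 20 after the knockdown in medium, 19 of 24 with cytokines, 11 of 15 for cytokines in shRNA-NC, 8 of 12 in shRNA-*Ddx5* and 3 of 7 for the interaction were kept under every alternative other than the fold limit, and none changed sign. Keeping only log2 fold changes beyond 1 in size left 774 of 5817 genes after the knockdown in medium, 795 of 5645 with cytokines, 495 of 4181 for cytokines in shRNA-NC, 637 of 3344 in shRNA-*Ddx5* and 245 of 1016 for the interaction. For the genes described here it left 1 higher and 0 lower, 3 and 2, 3 and 0, 4 and 0, and 1 and 0, in the same order. Rescaling to equal sums gave 6 higher for cytokines in shRNA-NC, 7 higher and 7 lower for cytokines in shRNA-*Ddx5* and 2 higher for the interaction. Quantile normalization gave 7 higher and 4 lower for cytokines in shRNA-*Ddx5* and 5 lower for the interaction. The pseudocount of 0.1 and the missing filter each gave 2 higher for the interaction, and without the filter these were *Pfkl* and *Epas1*, the latter not tested otherwise. With each library left out in turn, the knockdown with cytokines gave 2 to 4 lower and 18 to 20 higher, the knockdown in medium 13 to 16 higher, cytokines in shRNA-*Ddx5* 6 to 11 higher and the interaction 1 to 4 higher, with 559 to 1123 genes in all. The cause of these changes was not tested.

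The replicate numbers pair no samples by any label, and libraries of the same number did not deviate together throughout (correlations of residuals of 0.448, 0.0425 and 0.313 in medium and -0.0201, 0.121 and -0.0855 with cytokines, for replicates 1 to 3). With the replicate block, 15 genes were higher and 4 lower after the knockdown in medium and 20 and 4 with cytokines, out of 5452 and 5232 genes in all, and the interaction called 687 genes. Depth limits *Ldhb*, *Car9* and *Slc16a3*, which had under 40 fragments in every library.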

Other observations

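Of 6 further carriers of hexoses and monocarboxylates that were tested, 2 were higher and 1 lower after the knockdown in medium and 3 higher and 1 lower with cytokines, beside 25.3% and 21.7% of all genes in medium and 23.5% and 22.1% with cytokines. *Emb*, embigin, a partner of lactate carriers, had an FPKM of 1.55, 1.63 and 1.599 in shRNA-NC and 9.18, 7.84 and 10.7 in shRNA-*Ddx5* (1.97, SE 0.15, limma adjusted p = 2.5e-06). With cytokines it was 3.22, 2.67 and 1.72 against 9.20, 9.06 and 9.54 (1.56, SE 0.15, limma adjusted p = 1.1e-05). *Slc2a6*, a hexose carrier, moved the other way, at 4.51, 5.46 and 3.76 FPKM in shRNA-NC and 0.796, 0.699 and 0.778 in shRNA-*Ddx5* (-1.66, SE 0.16, limma adjusted p = 1.8e-05). With cytokines it was 5.43, 8.88 and 8.73 against 4.89, 3.997 and 4.01 (-0.69, limma adjusted p = 0.0053), and cytokines raised it in shRNA-*Ddx5* cells (1.59, limma adjusted p = 2.4e-05).

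Of 11 further isozymes of glycolysis and genes of gluconeogenesis, 5 were higher and none lower in medium and 4 higher and 1 lower with cytokines, beside the same shares of all genes. *Adpgk*, an ADP-dependent glucokinase, rose in medium from a mean of 24.2 to 43.0 FPKM (0.81, limma adjusted p = 2.0e-05). *Eno3*, the muscle enolase, was 39.5 FPKM in shRNA-NC and 60.3 after the knockdown in medium, and 26.7 and 43.0 with cytokines (0.58 and 0.67, limma adjusted p = 0.0049 and 0.0021). *Tigar*, a phosphatase that opposes *Pfkfb3*, rose with cytokines in both lines (0.79 and 0.46, limma adjusted p = 1.2e-05 and 0.00064).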
